A study of Mus musculus with 6 samples.

Results

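The enzymes and carriers of fatty acid β-oxidation were compared between the hearts of mice with and without alpha MHC Cre. The members were 32 genes chosen by symbol, with earlier results of these data known. They cover the carnitine shuttle, the mitochondrial oxidation spiral, electron transfer, peroxisomal oxidation, thioesterases and a few genes of fuel choice. Of these genes, 30 could be read, through 50 of the 45101 probe sets, a probe set being the group of probes that measures 1 transcript on the array. Acsl1 was not named in the annotation used here, and the probe set annotated with Cpt1b also lists other genes and was not used. All 30 genes and 49 of their 50 probe sets passed the filter on low signal.

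The study measured RNA from the apex of 6 hearts of male mice aged 6 to 7 weeks, with 1 heart and 1 Affymetrix array per sample. Every animal had the genotype Fog2flox/delta, with a floxed and a deleted allele of Fog2 (official symbol Zfpm2), a cofactor of GATA transcription factors. In 3 animals alpha MHC Cre was also present, in which the promoter of the α-myosin heavy chain gene drives Cre recombinase in cardiomyocytes. The other 3 had no Cre, and since they too carried the deleted allele they were not wild type. No animal had Cre without the floxed allele, so Cre and the loss of Fog2 cannot be told apart. The titles call the samples biological replicates. Hearts are named no Cre 1 to 3 and Cre 1 to 3, and a difference is the mean of the Cre hearts minus the mean of the controls, on the log2 scale.

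The adult heart draws most of its energy from long-chain fatty acids. They are activated to acyl-CoA, carried into mitochondria as carnitine esters and shortened by repeated rounds of dehydrogenation, hydration, a further dehydrogenation and thiolysis, which yield acetyl-CoA. Electrons from the first step reach the respiratory chain through the electron transfer flavoprotein and its dehydrogenase. Entry is held back by malonyl-CoA, which inhibits carnitine palmitoyltransferase I. Nuclear receptors of the PPAR and ERR families are known activators of these genes, and lower expression of the pathway is a known feature of the failing heart.

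Array medians spanned 0.09 and arrays correlated at 0.98 to 0.987 within groups and 0.964 to 0.973 between groups, over tested probe sets. The cardiomyocyte markers read at similar levels in both groups, with a summed level of 16.36 to 16.39 in controls and 16.34 to 16.4 in Cre hearts, but most of them lie close to the array maximum. The adipocyte list, of which 4 of 6 genes were on the array, had summed levels of 7.84 to 8.16 and 8.01 to 8.15, and Adipoq, at 3.57, 4.35 and 4.56 in controls and 5.49, 4.37 and 5.56 in Cre hearts, was too dim to be tested. The fibroblast sum was 13.38 to 13.62 in controls and, without overlap, 13.98 to 14.15 in Cre hearts. Of the fibroblast markers 4 of 7 rose, where 4.2% of all tested genes did. The endothelial sum also did not overlap, at 12.03 to 12.29 and 12.38 to 12.43, but only 1 of 7 endothelial markers rose. This was Vwf, by 1.12 ± 0.17 (SE, limma adjusted p 0.0066), and of the 7 differences 6 were positive and 1 was negative. In whole tissue, fewer cardiomyocytes and less of a transcript per cardiomyocyte cannot be told apart, and the part of these markers in the results below was not tested. Of the 2 probe sets of Zfpm2, the dimmer fell by 0.88 ± 0.13 (SE) and the brighter rose by 1.68 ± 0.12 (limma adjusted p 0.0052 and 0.00014). The dimmer loses the call when no filter is used (0.068). The region of the gene that each of them reads was not known here.

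In hearts with Cre, 5 of the 30 genes fell and 0 rose. They were Eci1, Cpt2, Slc22a5, Acaa2 and Etfb, which belong to the auxiliary enzymes, the carnitine shuttle, thiolysis and electron transfer, and the least change was that of Etfb, whose signal fell by 26.9%, and the greatest that of Eci1, which fell by 40.1%. The threshold was a limma adjusted p under 0.05 over all 27022 tested probe sets, and 6.24% of the 13062 tested genes passed it, 2.04% lower and 4.2% higher. A gene is represented by its brightest tested probe set. Of the 30 genes, 28 had a negative difference, against 52.3% of all tested genes, and the median difference was -0.37, against -0.01 for all tested genes. All 3 hearts with Cre read below all 3 without Cre for 22 of the 30, against 12.9% of all tested genes, and for 0 of the 30 was the order reversed (13.2% of all). The groups thus did not overlap for 22 of 30, against 26.1% of all tested genes in either direction. Counted as probe sets, 8 of 49 fell and 0 rose, where 5.23% of all tested probe sets passed, 1.79% lower and 3.43% higher. The count of 5 rested on the filter and the variance model. Without a filter on dim probe sets 0 genes passed (limma adjusted p 0.066 to 0.12 for the 5), and with an intensity trend and robust settings 18 fell, where 3.25% of all genes were called lower. Leaving out 1 heart gave 2 genes without no Cre 1, 1 without Cre 2 (Eci1 alone) and 2 without Cre 3, where 1.04%, 0.567% and 1.07% of all genes were called lower.

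The hearts with Cre were not equally low. Relative to the mean of the hearts without Cre, the median over the 30 genes was 0.02, -0.06 and 0.03 in no Cre 1 to 3, and -0.23, -0.46 and -0.43 in Cre 1 to 3. The same median over all tested genes lay between -0.05 and 0.06 in every heart. Cre 1 was thus the mildest of its group, and it was the lowest heart with Cre for 0 of the 30 genes, while Cre 2 was lowest for 20 and Cre 3 for 10. Among hearts without Cre, no Cre 2 read below its group mean for 25 of the 30.

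**Figure D1:**
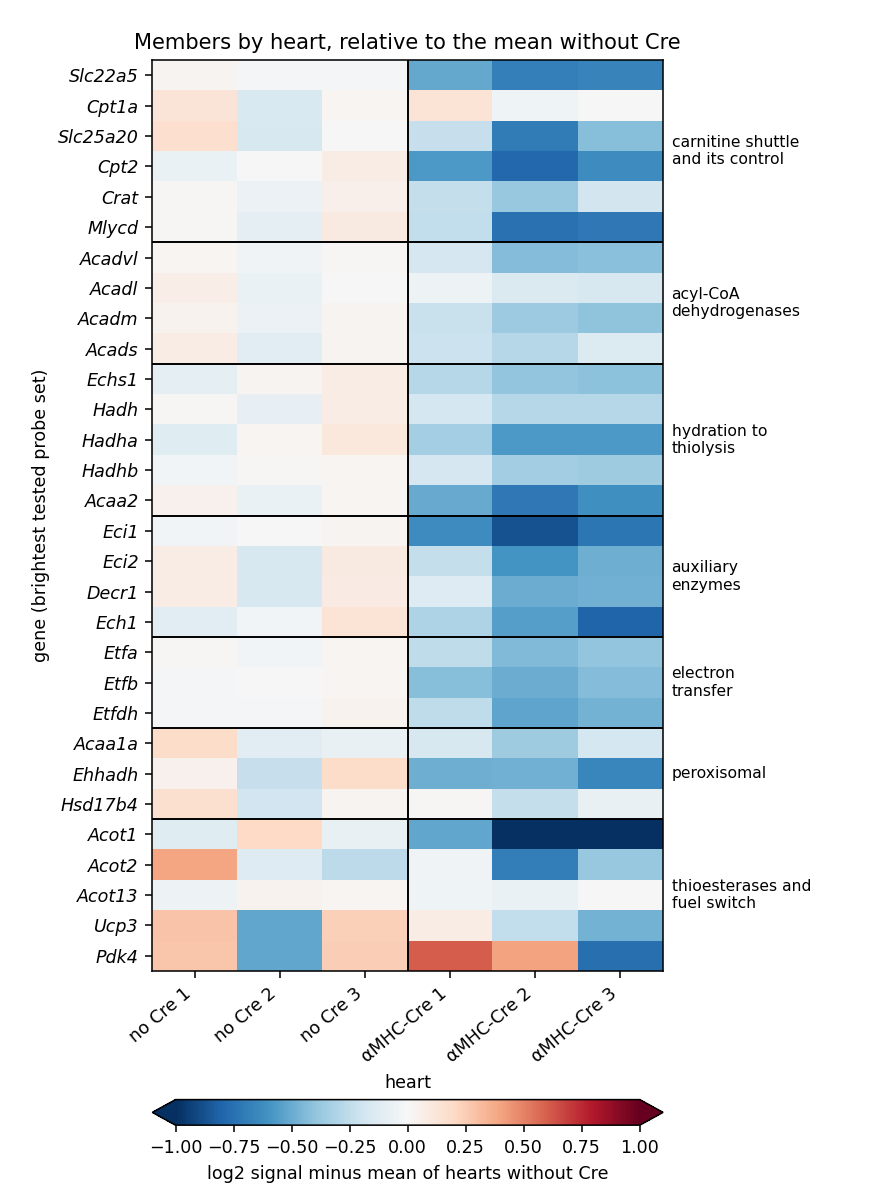
Log2 signal of the 30 genes (rows, grouped by step) in each of the 6 hearts (columns), minus the mean of the 3 hearts without Cre, with colours held at -1 and 1. The columns of Cre 2 and Cre 3 are darkest, with medians of -0.46 and -0.43, and Cre 1 is paler at -0.23.

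Promoter sequences are shown for the genes that fell, which were picked by the test, and for the region shared by Hadha and Hadhb. Whether these genes are regulated together was not tested. RefSeq promoter windows (build GRCm38.p6, 250 bases before to 50 after the start) were found for 25 of the 30 genes, and Acaa2 was not among them. The 250 bases before the start are printed 5′ to 3′ on the strand of the gene, with capitals for GC boxes (GGGCGG) and CCAAT boxes (CCAAT), searched on both strands, motifs that were chosen after the windows had been read.
Eci1, chr17:24426433-24426682, plus strand: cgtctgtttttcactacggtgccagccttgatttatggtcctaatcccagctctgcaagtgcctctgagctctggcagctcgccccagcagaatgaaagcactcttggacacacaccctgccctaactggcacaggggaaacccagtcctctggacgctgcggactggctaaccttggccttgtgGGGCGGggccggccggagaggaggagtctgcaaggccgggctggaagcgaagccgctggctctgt
Cpt2, chr4:107923590-107923839, minus strand: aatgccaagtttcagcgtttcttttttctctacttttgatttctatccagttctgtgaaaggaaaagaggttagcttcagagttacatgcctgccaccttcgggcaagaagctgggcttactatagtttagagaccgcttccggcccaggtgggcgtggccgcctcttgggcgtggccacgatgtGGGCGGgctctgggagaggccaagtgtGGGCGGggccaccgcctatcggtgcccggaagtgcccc
Slc22a5, chr11:53891704-53891953, minus strand: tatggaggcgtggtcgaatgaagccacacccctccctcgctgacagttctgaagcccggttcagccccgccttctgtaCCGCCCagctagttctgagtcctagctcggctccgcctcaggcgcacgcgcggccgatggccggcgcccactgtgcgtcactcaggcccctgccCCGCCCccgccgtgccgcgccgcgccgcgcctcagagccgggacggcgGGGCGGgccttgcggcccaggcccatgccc
Etfb, chr7:43443822-43444071, plus strand: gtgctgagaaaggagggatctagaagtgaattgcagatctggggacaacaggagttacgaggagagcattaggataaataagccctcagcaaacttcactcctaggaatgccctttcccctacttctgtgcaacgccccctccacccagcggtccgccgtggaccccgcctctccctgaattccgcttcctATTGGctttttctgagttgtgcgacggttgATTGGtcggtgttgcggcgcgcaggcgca
Hadha, chr5:30154981-30155230, minus strand: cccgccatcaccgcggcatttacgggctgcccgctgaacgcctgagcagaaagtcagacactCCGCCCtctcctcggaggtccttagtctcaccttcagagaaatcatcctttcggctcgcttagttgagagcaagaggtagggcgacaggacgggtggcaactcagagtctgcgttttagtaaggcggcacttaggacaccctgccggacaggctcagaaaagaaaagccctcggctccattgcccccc
Slc22a5 has 3 GC boxes in these bases, Cpt2 has 2, Eci1 and Hadha have 1 each, and Etfb has 2 CCAAT boxes. The RefSeq gene Slc22a5 extends to base 53891796, so part of its printed stretch lies inside the gene. Its GC boxes at -78 and -30 from the start of the window fall in that part. The start sites of Hadha and Hadhb, which encode the subunits of the mitochondrial trifunctional protein, face away from each other with 273 bases between them, and their windows share 228 bases. A GC box was found in 18 of the 25 windows (72%) and in 35.7% of all 32851 windows, and a CCAAT box in 48% and 37.4%. The GC box of Hadha also lies in the window of Hadhb and counts for both genes, and that of Etfb lies after the start. The share among windows of tested genes alone was not counted. The windows of the members had a median GC content of 60.7% against 52.7% for all windows. A TATA box (TATAAA) was found in 0 of 25 and in 13.6% of all.

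Binding motifs of receptors and of GATA factors were searched on both strands of the same windows. An exact direct repeat for PPAR (DR1, which is AGGTCA, any 1 base, then AGGTCA again) was found in 0 of 25 windows and in 0.0396% of all, and an exact ERR element (TCAAGGTCA) in 0 and 0.423%. With up to 2 mismatches outside the spacer base, DR1 matched in 4 windows (16%) against 3.86% of all. The 4 matches are shown in capitals with 8 bases on each side, since they are the nearest to a PPAR element in these windows.
Slc25a20, chr9:108662134-108662162, plus strand: ctgaatgtAGGTGAAAGGTCGgcggagcc
Etfa, chr9:55512300-55512328, minus strand: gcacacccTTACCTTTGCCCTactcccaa
Echs1, chr7:140116484-140116512, minus strand: gcccgctcAGGTCACGGGTCCacccctta
Ucp3, chr7:100472932-100472960, plus strand: tcagaattAGGTTTCAGGTCAgctggtgc
None of these 4 genes passed the test. Their differences were -0.45 for Slc25a20, -0.36 for Etfa and for Echs1, and -0.21 for Ucp3. The GATA motifs AGATAA or TGATAA matched in 3 windows (12%), those of Acadvl, Eci2 and Pdk4, against 18.6% of all. A match is a string of letters and not a bound site, and elements outside these windows were not searched.

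Of the 6 genes read for the carnitine shuttle and its control, 2 fell, where 2.04% of all tested genes did. The same share applies to the counts of the other steps below. Slc22a5, the plasma membrane carnitine transporter, read 8.91, 8.88 and 8.87 in hearts lacking Cre, against 8.38, 8.2 and 8.22 in Cre hearts. The groups lie far apart compared with their spread, and the signal fell by 0.62 ± 0.11 (SE, limma adjusted p 0.014). Its other probe set fell by 0.69 ± 0.16 (0.044). Cpt2, the inner membrane palmitoyltransferase that returns acyl groups from carnitine to CoA, read 11.48, 11.55 and 11.62 in the controls and 10.98, 10.76 and 10.92 in Cre hearts. It fell by 0.66 ± 0.12 (adjusted p 0.013), with Cre 2 the lowest heart. Its second probe set gave -0.83 ± 0.2 (adjusted p 0.051). The call of Slc22a5 was lost without no Cre 1 (0.052), Cre 2 (0.074) or Cre 3 (0.055), and that of Cpt2 without Cre 2 (0.068).

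The translocase between these enzymes, Slc25a20, read 11.46, 11.13 and 11.29 in hearts lacking Cre, against 11.06, 10.6 and 10.86 in Cre hearts. The groups do not overlap, but the closest hearts differ by little, and the difference of -0.45 ± 0.15 did not pass (limma adjusted p 0.15). Its second probe set gave -0.54 ± 0.13 (0.051). Mlycd, malonyl-CoA decarboxylase, which removes the inhibitor of carnitine palmitoyltransferase I, read 9.19, 9.09 and 9.27 against 8.94, 8.44 and 8.47. The difference of -0.57 ± 0.15 did not pass (adjusted p 0.072), and it passed without Cre 1 (-0.73, 0.025), the heart nearest to those without Cre. Crat, carnitine acetyltransferase, differed by -0.27 ± 0.11 (0.26).

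Cpt1a is the form of carnitine palmitoyltransferase I that prevails in liver. It read 8.6, 8.32 and 8.49 in the controls and 8.61, 8.43 and 8.47 in Cre hearts, so the groups overlap throughout. Its difference was 0.03 ± 0.12 (limma adjusted p 0.93), and its other probe sets gave -0.03 and 0. It is the only gene of the 30 whose probe sets had both signs, all of them within 0.03 of 0. Cpt1b, the muscle form, could not be read, so the step that controls entry was measured in part.

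None of the 4 acyl-CoA dehydrogenases, which catalyse the first step of each round for chains of different length, passed the test, and all 4 differences were negative. Acadvl, for very long chains, had the largest of them. It read 12.68, 12.63 and 12.68 in hearts lacking Cre, against 12.49, 12.23 and 12.25 in Cre hearts, groups without overlap in which Cre 1 lies nearest to the controls. The difference was -0.34 ± 0.12 (limma adjusted p 0.17). Acadm, for medium chains, differed by -0.33 ± 0.11 (0.16) and Acads, for short chains, by -0.21 ± 0.11 (0.4). Acadl, for long chains, differed by -0.12 ± 0.11 (0.65) with overlapping groups. Acadm and Acadl read within 1 log2 unit of the array maximum, as did Hadh, Hadhb and Ech1 below, and differences may be compressed there.

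In the steps from hydration to thiolysis, 1 of 5 genes fell. All hearts with Cre read below all controls for all 5, as for 12.9% of all tested genes. Acaa2, the mitochondrial 3-ketoacyl-CoA thiolase, which cleaves acetyl-CoA from the chain, read 12.82, 12.71 and 12.8 in the controls and 12.27, 12.06 and 12.16 in Cre hearts. All hearts with Cre were lower by a wide margin, and the signal fell by 0.61 ± 0.11 (SE, limma adjusted p 0.017). Its other probe sets fell by 0.7 ± 0.15 (0.029) and 0.74 ± 0.13 (0.013), so 3 of 3 passed. The call of the brightest was lost without no Cre 1 (0.063), Cre 2 (0.085) or Cre 3 (0.056) and stood just at the threshold without no Cre 3.

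Hadha and Hadhb, the subunits of the trifunctional protein that acts on long chains, differed by -0.5 ± 0.13 (limma adjusted p 0.057) and -0.29 ± 0.11 (0.22). Hadha read 12.24, 12.38 and 12.46 in hearts lacking Cre, against 12.02, 11.78 and 11.78 in Cre hearts, again with Cre 1 closest to the controls. It passed in 8 of 17 alternatives, such as quantile normalization (0.04). The brightest probe set of Hadhb read up to 13.41, nearer to the array maximum than that of Hadha at 12.46. The dimmer probe sets of Hadhb gave -0.35 ± 0.16 (0.29) and -0.2 ± 0.28 (0.8), the latter at a control mean of 6.67. Whether closeness to the maximum had a part in these differences was not tested. Echs1, the short-chain enoyl-CoA hydratase, differed by -0.36 ± 0.11 (0.12). Hadh, the hydroxyacyl-CoA dehydrogenase for shorter chains, differed by -0.25 ± 0.11 (0.29), while its 2 dimmer probe sets gave -0.39 and -0.4 (0.11 and 0.12).

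The auxiliary enzymes feed unsaturated fatty acids into the same spiral, and 1 of 4 fell. Eci1, the mitochondrial enoyl-CoA isomerase that moves a double bond, read 12.19, 12.21 and 12.24 in the controls and 11.59, 11.35 and 11.49 in Cre hearts. The controls are nearly identical and every heart with Cre is far below them. Eci1 fell by 0.74 ± 0.12 (SE, limma adjusted p 0.0075), and it kept its call when any 1 heart was left out (0.017 to 0.045). Ech1, a dienoyl-CoA isomerase, read 13.11, 13.19 and 13.35 against 12.91, 12.67 and 12.42. Its difference of -0.55 ± 0.15 did not pass (0.071), and here Cre 3 rather than Cre 2 was lowest. Eci2, an isomerase of mitochondria and peroxisomes, differed by -0.44 ± 0.14 (0.12). Decr1, a dienoyl-CoA reductase, differed by -0.37 ± 0.14 (0.21), and by -0.56 ± 0.15 (0.065) in its dimmer probe set.

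Of the 3 genes of electron transfer, 1 fell. Etfb, the β subunit of the electron transfer flavoprotein, read 12.77, 12.78 and 12.81 in hearts lacking Cre, against 12.36, 12.29 and 12.35 in Cre hearts. Its hearts agree closely within each group, with SDs of 0.02 and 0.04 (n = 3), and it fell by 0.45 ± 0.11 (limma adjusted p 0.044). The call was lost whichever heart was left out (0.086 to 0.16), while the difference stayed between -0.47 and -0.43. Its partner Etfa differed by -0.36 ± 0.11 (0.11), and Etfdh, which passes the electrons on to ubiquinone, by -0.42 ± 0.12 (0.088). The groups overlapped for none of these 3 genes, with the hearts with Cre lower, as for 12.9% of all tested genes.

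**Figure D2:**
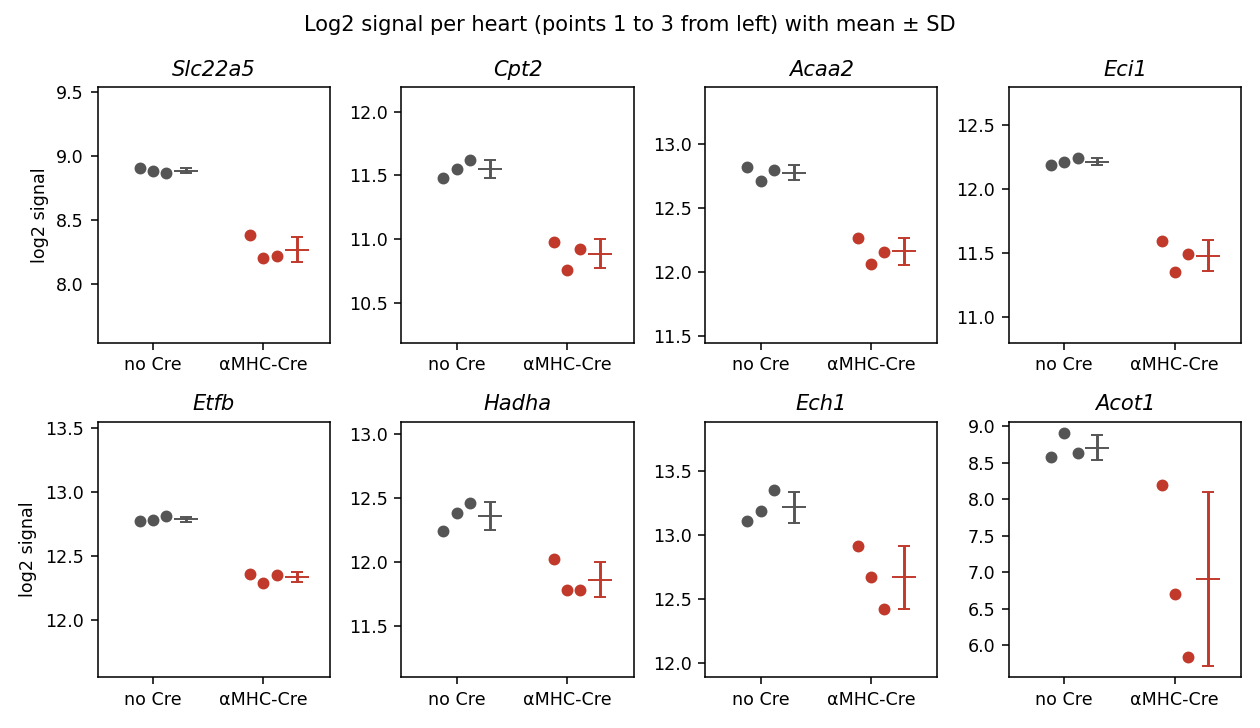
Log2 signal of each heart (points, replicates 1 to 3 from left) for the 5 genes that fell and for Hadha, Ech1 and Acot1, with mean and SD beside them (n = 3 per group). Axes span at least 2 log2 units and do not start at 0. The groups do not overlap in any panel, nor do they for 26.1% of all tested genes in either direction. The spread with Cre is widest for Acot1, from 8.19 to 5.84.

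Among peroxisomal genes 0 of 3 passed. Ehhadh, the bifunctional enzyme that is strongly induced by PPARα in liver, had the largest difference. It read 7.15, 6.88 and 7.29 in the controls and 6.62, 6.63 and 6.45 in Cre hearts, without overlap, and differed by -0.54 ± 0.14 (limma adjusted p 0.059). Without no Cre 2, the lowest control, it passed (-0.66, 0.034). Acaa1a, the peroxisomal thiolase, differed by -0.23 ± 0.13 (0.41) and Hsd17b4, the other bifunctional enzyme, by -0.1 ± 0.14 (0.79).

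None of the 5 thioesterases and genes of fuel choice passed, and the widest spread of all was found here. Acot1, a cytosolic acyl-CoA thioesterase, read 8.58, 8.9 and 8.63 in hearts lacking Cre, against 8.19, 6.7 and 5.84 in Cre hearts. The 3 hearts with Cre range over more than 2 log2 units, with Cre 1 near the controls and Cre 3 far below. The difference of -1.79 ± 0.47 was the largest of the 30 genes but did not pass (limma adjusted p 0.065), and it was -2.43 without Cre 1 (0.0026) and -1.26 without Cre 3 (0.11). Acot2, the mitochondrial thioesterase and a close paralog of Acot1, read 9.56, 9.04 and 8.9 against 9.13, 8.48 and 8.79 in its brightest probe set, where the groups overlap and the difference was -0.37 ± 0.21 (0.43). Its dimmer probe set read 7.68, 7.56 and 7.3 against 7.23, 6.4 and 6.37, a difference of -0.84 ± 0.23 (0.072), with the same order of hearts with Cre as Acot1. Probes of such near-identical genes can bind both transcripts, so values of Acot1 and Acot2 are uncertain.

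Pdk4, the kinase that inhibits pyruvate dehydrogenase and so favours fatty acid use, showed no common direction. It read 11.65, 10.85 and 11.62 in the controls and 11.97, 11.77 and 10.62 in Cre hearts, so the groups overlap, and the hearts with Cre alone span more than 1 log2 unit. The difference was 0.08 ± 0.35 (limma adjusted p 0.94), and it was -0.18 without no Cre 2 or without Cre 1 and 0.5 without Cre 3. Ucp3, the muscle uncoupling protein homolog, differed by -0.21 ± 0.23 (0.71), with no Cre 2 the lowest heart of all at 7.69, and by -0.59 ± 0.24 (0.23) in its other probe set, where the groups also overlap. Acot13, a thioesterase bound to mitochondria, read 12.43 to 12.51 in controls and 12.41 to 12.48 in Cre hearts, a difference of -0.04 ± 0.11 (0.91) at a level well above the filter.

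**Figure D3:**
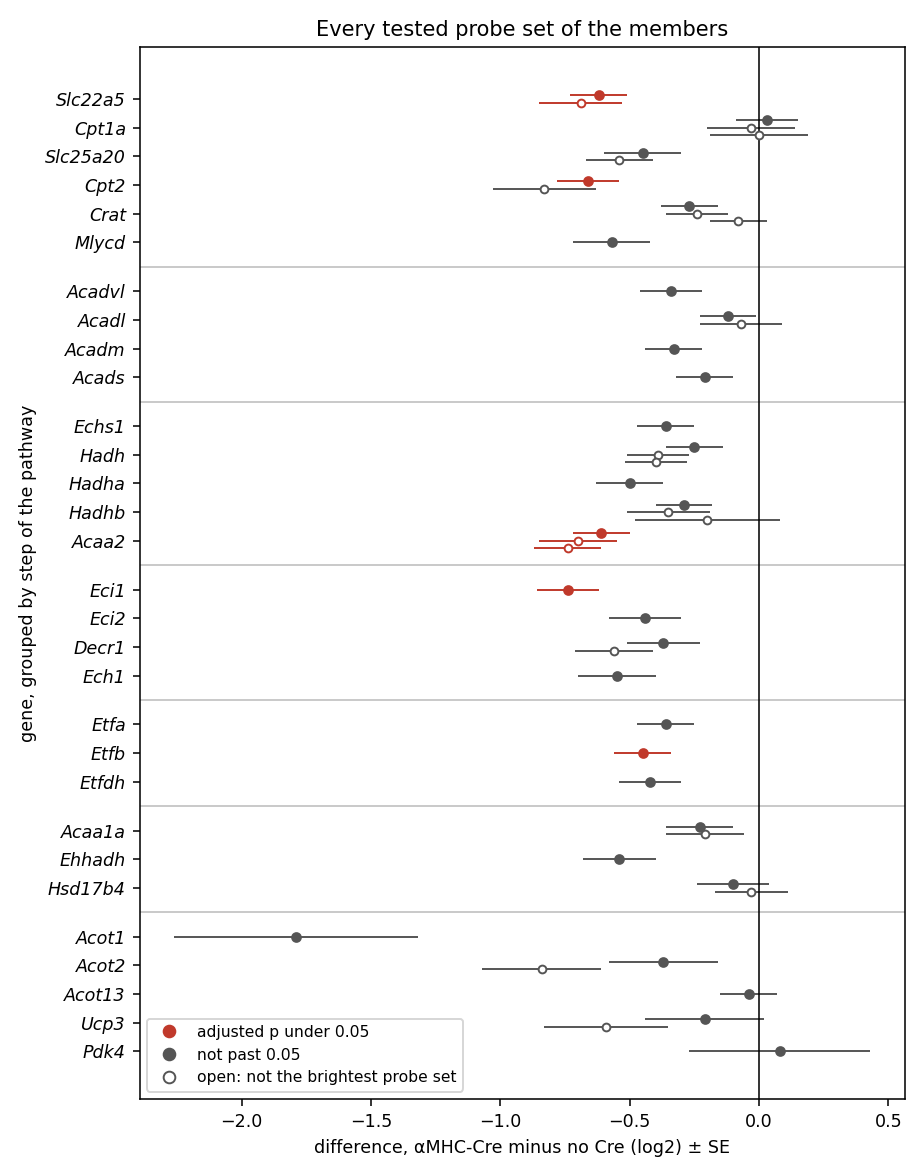
Difference with Cre minus without Cre on the log2 scale, with SE, for all 49 tested probe sets of the 30 genes, grouped by step. Filled points are the brightest probe set of a gene and red marks the 8 probe sets with a limma adjusted p under 0.05, all on the negative side.

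Of the 30 genes, 14 had more than 1 tested probe set. The calls differed between the probe sets of 1 of them, Cpt2, whose second probe set just missed the threshold. Names ending in _s_at, _x_at or _a_at mark probe sets that can read more than 1 transcript. They include the brightest of Acaa2, Hadh, Acaa1a, Hsd17b4, Mlycd and Eci2 and the second of Cpt2. The probe set of Acaa2 without such a suffix fell by 0.7 ± 0.15 (limma adjusted p 0.029). Median differences by step were -0.51 for the carnitine shuttle, -0.5 for the auxiliary enzymes, -0.42 for electron transfer, -0.36 for hydration to thiolysis, -0.27 for the acyl-CoA dehydrogenases, -0.23 for the peroxisomal genes and -0.21 for the last group. Differences between these steps were not tested, and the steps hold only 3 to 6 genes each. Across the 30 genes the difference did not follow the signal level (Pearson r 0.16, Spearman rho 0.02, as a description over genes that share the same 6 arrays).

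A second list held other genes of fatty acid and acyl-CoA metabolism, and also genes of pyruvate dehydrogenase control, uncoupling and ketone body use. It held 54 genes that are not members, of which 43 were tested. Of these, 8 fell and 0 rose, with a median of -0.26, against 2.04% of all genes called lower. The difference was negative for 28 of the 43 and positive for 15. It was positive for 5 of the 7 acyl-CoA synthetases, which activate fatty acids (median 0.21), and for 4 of the 8 other thioesterases, and none of these 9 genes passed. Acacb, the acetyl-CoA carboxylase of the outer mitochondrial membrane that makes the malonyl-CoA sensed by carnitine palmitoyltransferase I, read 10.15, 10.1 and 10.14 in hearts lacking Cre, against 9.75, 9.53 and 9.43 in Cre hearts, and fell by 0.56 ± 0.12 (limma adjusted p 0.032). Acaca, the other acetyl-CoA carboxylase of the list, differed by -0.27 ± 0.12 (0.31). Thus Acacb and, without passing, Acaca and the gene that removes malonyl-CoA, Mlycd, read lower. Pdp2, a phosphatase that activates pyruvate dehydrogenase, read 6.65, 6.58 and 6.48 against 5.6, 5.72 and 5.89 and fell by 0.83 ± 0.12 (0.0059), a call kept without any 1 heart. The thioesterase genes Acot7, Acot11 and Acot12 fell by 0.83 ± 0.19, 0.48 ± 0.11 and 0.55 ± 0.12, although another probe set of Acot12 gave 0.24 (0.39). Acot12 was dim, with means of 5.73 in controls and 5.18 in Cre hearts, close to the filter limit of 5.16. The acyl-CoA dehydrogenase family genes Acad10 and Acad12 fell by 0.49 ± 0.11 and 0.52 ± 0.12, with 0.06 (0.91) in another probe set of Acad10, and Gcdh, the glutaryl-CoA dehydrogenase, by 0.53 ± 0.11. Without a filter 0 of the 8 passed. Leaving out 1 heart left 1 of the 8 (Pdp2) without no Cre 1, no Cre 3 or Cre 2, 2 (Pdp2 and Acot12) without Cre 3, 2 (Pdp2 and Acot7) without no Cre 2, and 3 (Pdp2, Acot7 and Acacb) without Cre 1. Acsl6, which is not among the 8, also passed without no Cre 2.

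Genes of the respiratory chain and of the TCA cycle are given from the same fit. Of 29 tested subunits of the respiratory chain 1 fell and 0 rose, with a median of -0.08. Over all tested genes 2.04% fell and 4.2% rose. Of 13 tested genes of the TCA cycle 0 passed (3 at an unadjusted p under 0.05 in limma), with a median of -0.19. An unadjusted p under 0.05 in limma was found for 20 of the 30 members, 3 of the 29 respiratory chain genes and 2479 of all 13062 genes. Differences were negative for 25 of the 29 and for 12 of the 13 TCA cycle genes, as they were for 28 of the 30 members. Whether the members differ from these lists was not tested, and many respiratory chain genes read close to the array maximum.

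**Figure D4:**
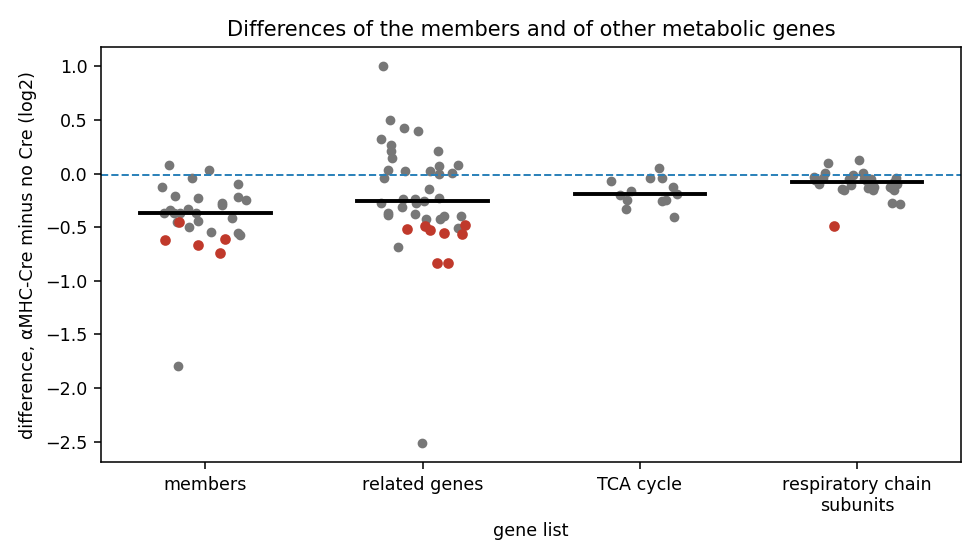
Difference with Cre minus without Cre (log2) of each tested gene in 4 lists, with the median as a black bar, limma adjusted p under 0.05 in red and the median of all tested genes as a dashed line at -0.01. The medians are -0.37 for the members, -0.26 for related genes, -0.19 for the TCA cycle and -0.08 for respiratory chain subunits.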

How the data were processed

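Total RNA of 6 hearts was hybridised to 1 array each, per the labels' protocols. The authors deposited log2 values per probe set made with PLIER, per the submitters' processing notes. The settings of PLIER, and whether arrays were normalized to each other, could not be read from the sources used here. Base 2 was inferred from the values. Depth does not apply to arrays, and the number of hearts, 3 per group, limits precision.

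From 45101 probe sets, 64 controls were left out, as were the dimmest 40% by mean signal (18015 probe sets, mean under 5.16). The groups were compared over the remaining 27022 with limma 3.58.1 in R 4.3.3 (lmFit, eBayes, two-sided, no covariates), with Benjamini-Hochberg adjustment over all of them. SEs are moderated. No between-array normalization was added, since medians differed by 0.09. The fit was tested on simulated data with changes larger than those of the member genes that fell. Recovery of changes of their size was not tested. Genes were named from the platform annotation where a probe set has 1 symbol. All members are named, with values by heart for those that passed, for the largest difference in a step where none passed, for members whose probe sets disagree and, chosen after their values were seen, for Slc25a20, Mlycd, Hadha, Ech1, Acot2, Acot13 and Pdk4. Related genes that passed are named.

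The members and lists were chosen with earlier results of these data known. Alternatives were another normalization, filter, variance model, threshold, probe set or added signal, and leaving out each heart. Promoter windows came from RefSeq (GRCm38.p6).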

Additional observations from a re-analysis of the deposited data

How the results depend on the processing

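No member gene or member probe set rose in any alternative run, and the median difference of the members stayed between its lowest and highest values of -0.45 and -0.32 when 1 heart was left out. The number of member genes and of member probe sets that fell was 5 and 8 in the analysis reported. The share of all genes called lower, 2.04% there, also differed between settings and follows each pair in brackets. They were 8 and 14 with quantile normalization (2.51%), 10 and 16 with a 60% filter (3.1%), 9 and 16 with array weights (2.77%) and 18 and 27 with trend and robust settings (3.25%). They were 10 and 17 with 16 added to the unlogged signal (2.63%) and 15 and 24 with 64 added (3.12%). They were 1 and 1 at a threshold of 0.01 (0.521%), 11 and 18 at 0.1 (3.44%), and 0 and 0 without a filter (0.121%). With the mean over probe sets 8 member genes fell (2.59%). Without 1 heart the counts ranged from 1 to 6 genes and from 1 to 10 probe sets (0.567% to 1.65%). The cause of these shifts was not tested. A filter changes how many probe sets share the adjustment, and the variance model was also fitted anew to the probe sets kept.

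Probe sets changed in all numbered 1412, and 275 without a filter, 529 and 2220 at thresholds of 0.01 and 0.1, and 600 to 1075 without 1 heart (600 without Cre 2). Of the called probe sets 65.7% were higher, and 82.2% without a filter. Related genes that fell numbered 8, and 0 without a filter, 1 and 13 at thresholds of 0.01 and 0.1, and 1 to 3 without 1 heart. The shares of all genes called lower in these settings are those given above for the members. Related genes that rose numbered 0, but 1 with the 60% filter (Acsf3) and with array weights (Pdk3), 2 with trend and robust settings, with 16 or 64 added, with the mean over probe sets or at 0.1, and 0 to 1 without 1 heart.

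Deviations of same-numbered hearts correlated at -0.06, 0.21 and -0.19, so no common pairing by replicate number was seen. Those of differently numbered hearts correlated at -0.2 to 0.27, highest for no Cre 3 with Cre 1 and next for no Cre 1 with Cre 3 (0.19). Together with no Cre 2 and Cre 2 (0.21), these pairs use each heart once, and all other pairs were at 0.01 or lower. Whether hearts were matched in another way was not tested. With the replicate number as a block, 4 member genes fell, where 1.1% of all genes were called lower. Etfb lost its call there (limma adjusted p 0.098), 2 related genes fell and 909 probe sets changed.

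The sign of genes near 0 turned. Cpt1a was -0.02 with array weights and 0 with the mean over probe sets, and between -0.04 and 0.1 without 1 heart. Pdk4 was -0.03 with array weights and between -0.18 and 0.5 without 1 heart.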

Other observations

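Among related genes, Amacr, the racemase that readies branched fatty acids for peroxisomal oxidation, held the largest difference of that list, -2.52 ± 1.42 (SE, limma adjusted p 0.42), and it came from a single heart. Its probe set read 9.43, 9.25 and 9.63 in the controls and 9.03, 2.67 and 9.07 in Cre hearts, so Cre 2 lay more than 6 log2 units below its group while Cre 1 and Cre 3 lay just under the controls. This gene was singled out after its values were seen.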
